A study of Mus musculus with 224 samples.

Results

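Cbln1, Cbln2 and Cbln4 are 3 of the mouse cerebellin genes, and they were measured here by 5 probesets out of 45037 on the array and 18193 genes named by a single symbol. Cbln1 was measured by 1423286_at, 1423287_at and 1423288_s_at, Cbln2 by 1434779_at and Cbln4 by 1433607_at, which are all probesets whose annotation gave one of these symbols. The genes were chosen by their group differences in the prefrontal cortex, so those PFC contrasts are given as a description with no test, and tests are read only in the other 4 regions and on measures that the choice did not use. In GRCm38.p6, RefSeq places Cbln1 on chromosome 8 (87468853 to 87472592), Cbln2 on chromosome 18 and Cbln4 on chromosome 2 (172036336 to 172043466).

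Cerebellins are secreted proteins of the C1q family that organize synapses from within the cleft. Cbln1, known from cerebellar granule cells, binds neurexins on the presynaptic side and delta-type glutamate receptors on the postsynaptic side, and so bridges the synapse. Cbln2 binds the same kinds of partners and is expressed widely in the forebrain, while Cbln4 also binds the netrin receptors Dcc and neogenin (Neo1).

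The series compared chronic intermittent ethanol vapor and voluntary drinking in 224 Affymetrix Mouse Genome 430 type 2 arrays from 51 numbered mice, each mouse in 1 treatment group. All mice were male C57BL/6J bought at 10 weeks of age, and every mouse, controls included, received pyrazole at 1 mmol/kg before each of the chamber sessions, which took 16 h daily on 4 days of each of the 4 cycles and were followed by 72 h without ethanol. CIE Drinking mice inhaled ethanol vapor after 1.6 g/kg of injected ethanol and had 2-bottle choice of 15% ethanol for 2 h a day between cycles, after 6 weeks of baseline drinking. Air Drinking mice had the same bottles but breathed air and were injected with saline, CIE NonDrinking mice had vapor and only water, and Air NonDrinking mice stayed naive to ethanol. Per the paper, the drinking groups had been without ethanol for a shorter time at sacrifice than the NonDrinking groups. Drinking and the time since the last ethanol therefore cannot be told apart in any region. Taking CIE Drinking first, then Air Drinking, then CIE NonDrinking and last Air NonDrinking, the arrays numbered 12, 11, 12 and 12 in the prefrontal cortex (PFC), 11, 12, 12 and 12 in the nucleus accumbens (NAC), and 12, 11, 11 and 8 in the hippocampus (HPC). They numbered 12, 12, 11 and 10 in the stria terminalis bed nucleus (BNST) and 12, 12, 11 and 8 in the central amygdala (CeA).

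Each value is a log2 expression level of dissected bulk tissue, so fewer cells that express a gene and less of its RNA per cell cannot be told apart. The arrays of a region were alike, with the lowest median correlation of an array with the others between 0.978 in the CeA and 0.994 in the HPC. Marker lists followed the labelled tissues in part. The striatal projection neuron list had a median percentile rank, among all probesets of an array, of 97.6 in NAC against 70.6 to 80.8 elsewhere, and the hippocampal list one of 84.1 in HPC against 38.9 to 66.1. The extended amygdala list stood at 85.7 in BNST and 78.1 in CeA, against 75.3 in NAC, and choroid plexus genes stood at 97.6 in CeA against 31.4 to 34.7 in the other regions. In the PFC the deep-layer list stood at 87.3, against 55.7 to 68.1 elsewhere, and the layer 6b and claustrum list at 83.3, against 59.1 to 72.0, whereas the upper-layer list did not set it apart (77.3 against 78.3 to 81.1).

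The sequence before the start of Cbln4 is shown because Cbln4 was the member with the largest interaction in the PFC, described below. It holds the 250 bases at chr2:172043467-172043716 on the minus strand (GRCm38.p6, RefSeq), and the capitals mark an E-box, searched as CANNTG, which reads the same on both strands.
Cbln4: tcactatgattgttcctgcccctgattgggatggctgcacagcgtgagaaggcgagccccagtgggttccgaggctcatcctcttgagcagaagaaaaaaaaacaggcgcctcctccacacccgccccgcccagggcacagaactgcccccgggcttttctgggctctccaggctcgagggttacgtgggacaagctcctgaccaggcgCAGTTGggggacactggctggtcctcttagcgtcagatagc
The window held 1 E-box, CAGTTG, whose first base lies at position -41 from the start, and 66.2% of 32851 RefSeq promoter windows of that length hold at least 1. The specific E-boxes CAGATG (in 7.51% of windows) and its reverse complement CATCTG (7.55%) were not found in these letters, nor was the cAMP response element TGACGTCA (1.55%).

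In the PFC, Cbln2 was high in the mice that had only 1 kind of ethanol exposure and low both in naive mice and in mice with both kinds. Its log2 level in Air NonDrinking mice ran from 8.10 to 8.95 with a median of 8.68 (mean 8.61 ± 0.31, SD, n = 12). In Air Drinking mice it ran from 8.87 to 9.47 with a median of 9.04 (mean 9.11 ± 0.20, n = 11), and in CIE NonDrinking mice from 8.60 to 9.40 with a median of 8.98 (mean 9.00 ± 0.25, n = 12). In CIE Drinking mice it ran from 8.31 to 8.72 with a median of 8.50 (mean 8.50 ± 0.12, n = 12), the narrowest of the 4 groups. Every CIE Drinking array was therefore below every Air Drinking array, while all other pairs of groups overlapped.

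The log2 fold change of Cbln2 in the PFC was -0.61 (SE 0.09) in Comparison 1, CIE Drinking against Air Drinking, and 0.38 (SE 0.09) in Comparison 2, CIE NonDrinking against Air NonDrinking. Vapor thus went with a lower level in drinkers and a higher one in nondrinkers. It was -0.49 (SE 0.09) in Comparison 3, CIE Drinking against CIE NonDrinking, and 0.50 (SE 0.09) in Comparison 6, Air Drinking against Air NonDrinking, so drinking likewise went with opposite signs in vapor and air mice. Drinking cannot be told apart here from the shorter time since the last ethanol. The groups at the 2 ends of exposure differed by -0.11 (SE 0.09) in Comparison 4, CIE Drinking against Air NonDrinking, and the 2 singly exposed groups by -0.12 (SE 0.09) in Comparison 5, CIE NonDrinking against Air Drinking. The interaction, the vapor difference in drinkers minus that in nondrinkers, was -0.99 (SE 0.13), and the averaged differences for vapor (-0.11, SE 0.06) and drinking (0.00, SE 0.06) were small beside it. The 6 comparisons share arrays, so that their values are not separate observations. The gap between the CIE Drinking and Air Drinking arrays was 0.15, and without any 1 array the difference stayed between -0.63 and -0.57. Over all probesets, 0.147% had groups that did not overlap in that comparison, from which nothing is read, since the comparison chose the genes.

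Cbln4 was high in the same 2 groups in the PFC, at a lower level and with more spread. Its log2 level ran from 4.59 to 6.10 in Air NonDrinking mice (median 5.28, mean 5.34 ± 0.48, SD, n = 12) and from 5.67 to 6.73 in Air Drinking mice (median 6.09, mean 6.16 ± 0.39, n = 11). In CIE NonDrinking mice it ran from 5.27 to 6.89 (median 6.24, mean 6.06 ± 0.51, n = 12). In CIE Drinking mice it ran from 4.98 to 5.87 (median 5.41, mean 5.43 ± 0.27, n = 12). All pairs of groups overlapped, and 3 of the 12 CIE Drinking arrays lay within the Air Drinking range.

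The log2 fold changes of Cbln4 in the PFC were -0.73 (SE 0.17) in Comparison 1 and 0.72 (SE 0.16) in Comparison 2. They were -0.62 (SE 0.16) in Comparison 3 and 0.82 (SE 0.17) in Comparison 6. The remaining comparisons gave 0.09 (SE 0.16) and -0.10 (SE 0.17), and the interaction was -1.44 (SE 0.24). Opposite signs in drinkers and nondrinkers were thus seen for this gene too, and Comparison 1 stayed between -0.78 and -0.67 without any 1 array. Its probeset lay at a median percentile rank of 45.7 in the PFC, below the middle probeset of the array, so a filter on dim probesets leaves it out.

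Cbln1 did not share the pattern. The fold changes of its 3 probesets in the PFC lay between -0.16 and 0.21 over the 6 comparisons. The largest was for 1423287_at in Comparison 3 (0.21, SE 0.07), where CIE Drinking arrays ran from 7.30 to 7.81 (median 7.48) and CIE NonDrinking arrays from 6.75 to 7.53 (median 7.28). The groups overlapped, and 1423286_at and 1423288_s_at gave 0.05 (SE 0.07) and 0.04 (SE 0.06) there. The probesets of Cbln1 also went poorly together in the PFC, with within-group correlations of 0.28, 0.47 and 0.00 (n = 47) against 0.98 to 0.99 in the BNST (n = 45).

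**Figure D1:**
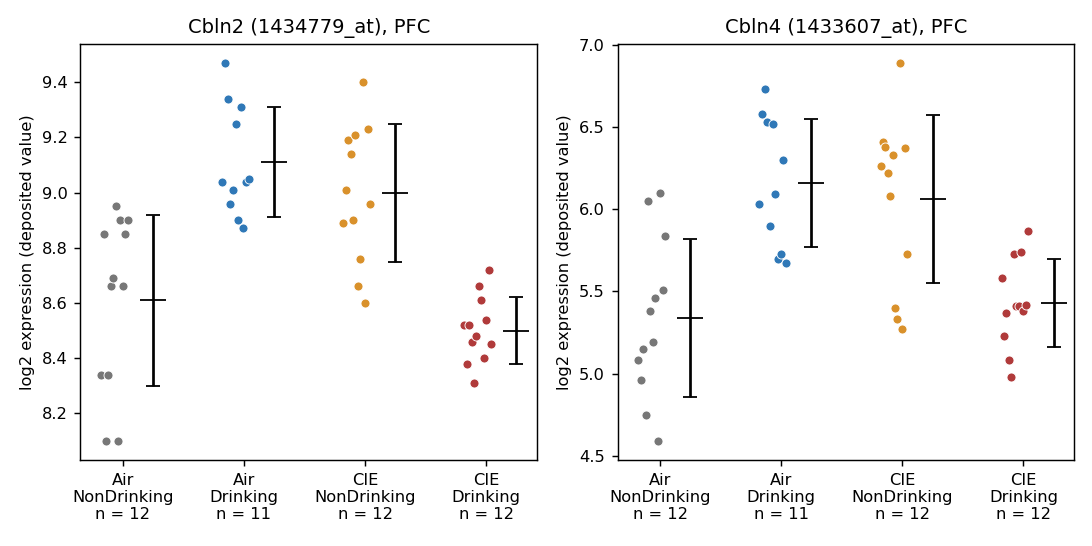
Log2 expression of Cbln2 (left) and Cbln4 (right) in the PFC by group, 1 point per array, with the group mean and SD as a bar beside the points; the vertical axes do not start at 0 and differ between panels. Air Drinking and CIE NonDrinking arrays sit high, and the CIE Drinking arrays of Cbln2, between 8.31 and 8.72, all lie below the Air Drinking arrays.

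At the false discovery rate (FDR) of 0.01 in LIMMA used throughout, the PFC values that chose the genes were 7 of the 30 of the 5 probesets in the 6 comparisons, those of Cbln2 in Comparisons 1, 2, 3 and 6 and of Cbln4 in Comparisons 1, 2 and 6. Over all probesets the shares in Comparisons 1 to 6, in that order, were 1.87%, 1.26%, 1.87%, 0.722%, 1.69% and 1.4%. Of the 2-factor terms, the interaction of Cbln2 and Cbln4 lay within the same limit (2.92% of all probesets), and no member did for vapor (0.915%) or drinking (1.35%). Because these contrasts chose the genes, nothing is read from the counts.

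Outside the PFC, no member was differentially expressed at an FDR of 0.01, although with array weights Cbln1 in BNST passed by 1423286_at in 1 comparison and for 1 of the 2-factor terms. In NAC, HPC, BNST and CeA, 0 of 30 values passed in each region, while 3, 5, 1 and 9 of them had an unadjusted p under 0.05. The share of all probesets that passed in Comparisons 1, 3 and 4 was 0.282%, 0.02% and 2.71% in NAC, 1.23%, 0.0832% and 3.63% in HPC, 0.943%, 0.401% and 1.22% in BNST, and 0.177%, 1.64% and 1.86% in CeA. In Comparisons 2, 5 and 6 it was 0.0% in all 4 regions, apart from 0.00222% in NAC in Comparison 5, and the interaction passed for 0.0% of probesets in each region. A p above the threshold does not show that the groups were alike, and several intervals outside the PFC were wide, as the plot of fold changes by region shows.

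The value nearest to the threshold was Cbln1 in HPC. By 1423286_at, CIE Drinking arrays ran from 6.55 to 7.34 (median 7.15, n = 12) and Air Drinking arrays from 7.20 to 7.51 (median 7.36, n = 11). All 12 CIE Drinking arrays were below the Air Drinking mean, and 3 of them lay within the Air Drinking range. The log2 fold change was -0.30 (SE 0.09, LIMMA adjusted p = 0.0387). The other Cbln1 probesets gave -0.47 (SE 0.15, LIMMA adjusted p = 0.0672) and -0.13 (SE 0.06, LIMMA adjusted p = 0.229).

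In CeA, Cbln1 had the same sign in Comparison 1. By 1423287_at, Air NonDrinking arrays ran from 6.36 to 7.56 (median 6.73, n = 8), Air Drinking arrays from 6.76 to 8.97 (median 7.87, n = 12) and CIE Drinking arrays from 5.94 to 8.61 (median 7.17, n = 12). The Air Drinking arrays reached highest, and 3 of the 12 fell within the Air NonDrinking range, but all groups overlapped. The log2 fold change was 1.00 (SE 0.33, LIMMA adjusted p = 0.847) in Comparison 6 and -0.67 (SE 0.29, LIMMA adjusted p = 0.26) in Comparison 1. Cbln2 in CeA gave -0.39 (SE 0.14, LIMMA adjusted p = 0.157) in Comparison 1, with CIE Drinking arrays from 6.24 to 7.52 (median 6.77) and Air Drinking arrays from 6.37 to 7.68 (median 7.09). Cbln4 in CeA gave -0.39 (SE 0.14, LIMMA adjusted p = 0.541) in Comparison 2. None of these passed. CeA arrays also varied widely in choroid plexus markers, with the mean of that list between 8.05 and 13.09, and its part in these values was not tested.

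In NAC, Cbln4 went the other way from the PFC in Comparison 1 without passing the test. CIE Drinking arrays ran from 8.25 to 9.90 (median 8.78, n = 11) and Air Drinking arrays from 7.42 to 9.29 (median 8.43, n = 12). Of the 11 CIE Drinking arrays, 9 lay within the Air Drinking range. The log2 fold change was 0.48 (SE 0.22, LIMMA adjusted p = 0.253), and it was 0.47 (SE 0.22, LIMMA adjusted p = 0.22) in Comparison 3. For Cbln2 in NAC, HPC and BNST, the values in Comparison 1 were -0.12, 0.16 and 0.07. A difference between these regions and the PFC was not tested, since the PFC values chose the genes.

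**Figure D2:**
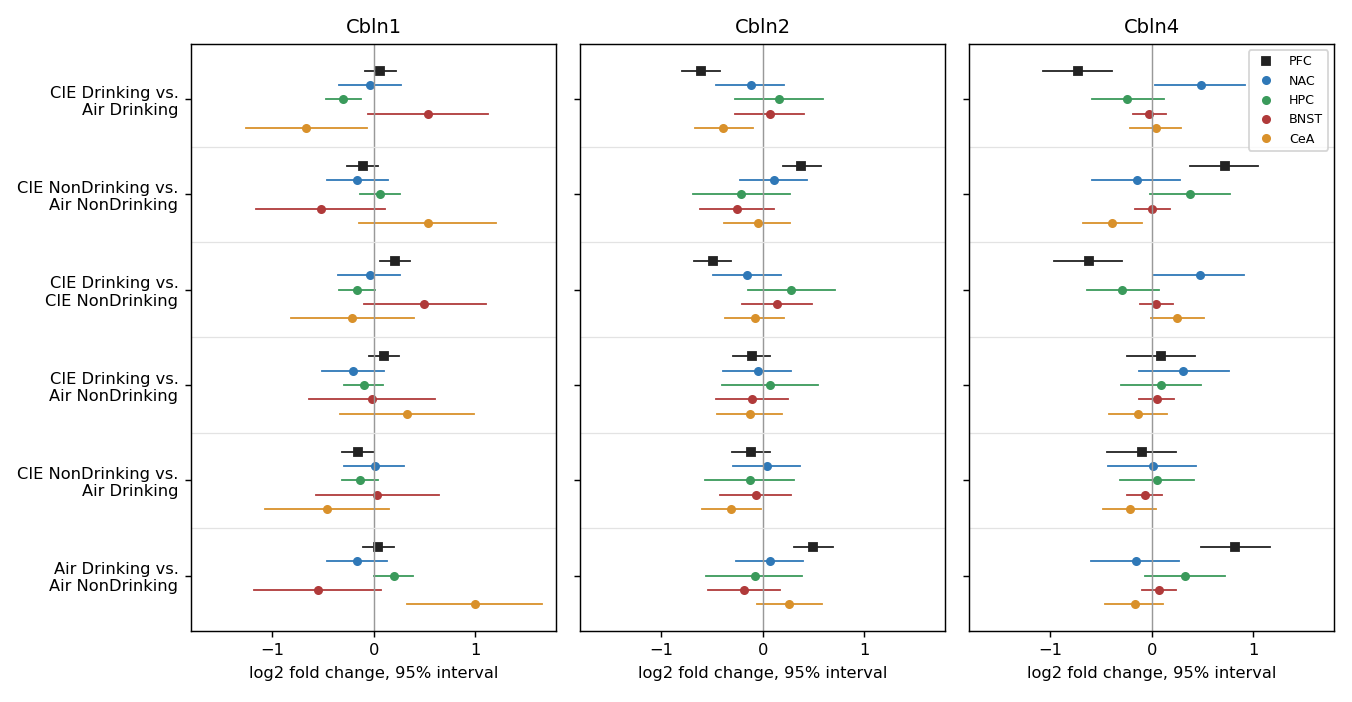
Log2 fold change (first group minus second) with its 95% interval in the 6 comparisons for Cbln1, Cbln2 and Cbln4, each by the probeset of highest mean, with 1 colour per region and squares for the PFC, which chose the genes. The PFC squares of Cbln2 and Cbln4 turn from -0.61 and -0.73 in Comparison 1 to 0.38 and 0.72 in Comparison 2, and the widest intervals are those of Cbln1 in BNST and CeA.

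Averaged over NAC, HPC, BNST and CeA in 1 LIMMA fit, the responses of the 5 probesets lay between -0.17 and 0.14 over the 6 comparisons, with SEs of 0.08 to 0.14. None of the 30 passed, and 0 of 30 had an unadjusted p under 0.05. The smallest LIMMA adjusted p was 0.364. Over all probesets, 7.02%, 0.0843%, 6.83%, 9.78%, 0.00683% and 0.00456% passed in Comparisons 1 to 6 in that order. Whether a response differed among the 4 regions was tested as well, and no member passed. The smallest LIMMA adjusted p was 0.0372, for Cbln1 (1423286_at) in Comparison 1, where the values were -0.04 in NAC, -0.30 in HPC, 0.58 in BNST and -0.52 in CeA. Cbln4 gave 0.48, -0.24, -0.03 and 0.04 there (LIMMA adjusted p = 0.148). The shares of all probesets in this test were 1.21%, 0.0%, 0.109%, 0.00456%, 0.0% and 0.0%.

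The members differed in where they were high. Regions were normalized separately, so levels are set across regions only by the percentile rank of a probeset within its own array, using the brightest probeset of each gene. Cbln1 ranked highest in BNST, with a median of 87.5 (range 67.8 to 93.8), ahead of PFC (64.1), CeA (55.8), HPC (54.3) and NAC (52.3). Its BNST arrays fell into a high and a low set, described below. The 35 high ones had Pmch, a hormone gene of the lateral hypothalamus, at 11.35 to 14.51, and the within-group r of Cbln1 with Pmch was 0.94. The part of the dissected tissue in this rank was not tested. The brightest Cbln1 probeset was 1423287_at in BNST, PFC and CeA but 1423286_at in HPC and NAC, and by 1423287_at the medians there were 50.1 and 44.2, which leaves the order as it is. Cbln2 ranked highest in PFC, with a median of 79.0 (range 71.3 to 84.9), ahead of BNST (68.0), CeA (49.9), NAC (48.5) and HPC (43.2). Cbln4 ranked highest in BNST (77.2, range 72.2 to 81.0), then CeA (70.7), NAC (70.6), PFC (45.7) and HPC (43.6). The ranges of neighbours in each order overlapped, so no step between neighbours was beyond the spread of the arrays, and CeA and NAC change places for Cbln4 on another scale.

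**Figure D3:**
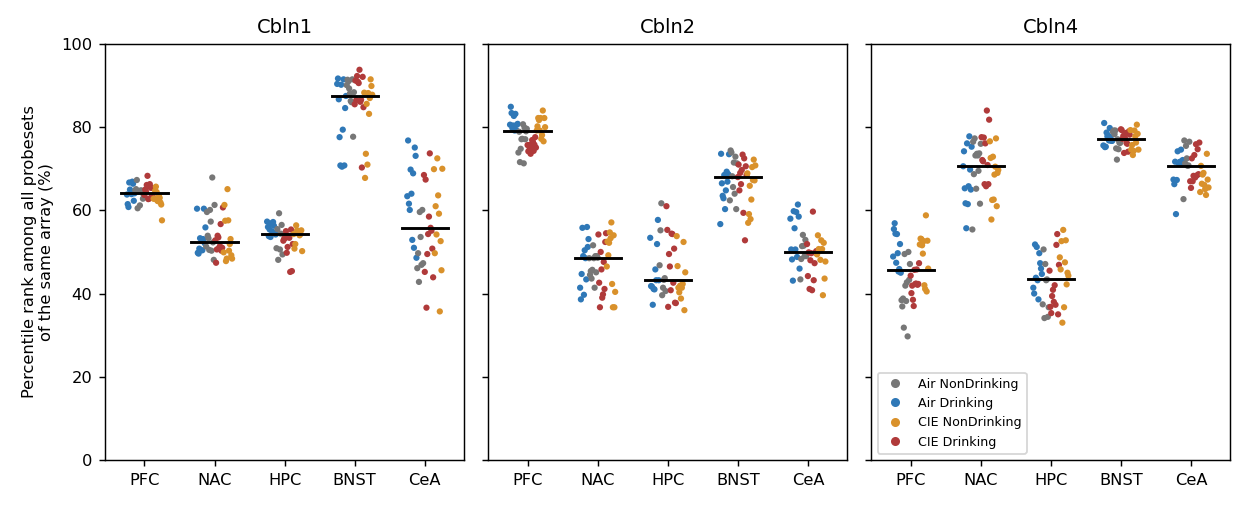
Percentile rank of Cbln1, Cbln2 and Cbln4 among all probesets of the same array (vertical axis, in percent) in the 5 regions, with 1 point per array coloured by group and a line at the median. Cbln1 stands at 87.5 in BNST with a tail of arrays that reaches down to 67.8, Cbln2 is highest in PFC at 79.0 and Cbln4 is highest in BNST at 77.2.

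Mice of 1 group differed in these genes by amounts that depended on the gene and region. The within-group SD of Cbln4 in the PFC was 0.42 on the log2 scale, the 99.7th percentile of all probesets, and that of Cbln2 was 0.23 (94.0th percentile), against 0.14 for the median probeset. Over all probesets, the first principal component held 23.3% of the within-group variance there, and its absolute correlation was 0.12 with Cbln2 and 0.31 with Cbln4. Cbln4 in NAC had an SD of 0.55 (99.6th percentile) and Cbln2 in HPC one of 0.53 (99.5th percentile). The SD of Cbln1 in the PFC was 0.16 to 0.19 over its probesets (69.1th to 84.8th percentile), and that of Cbln4 was 0.21 in BNST (86.5th) and 0.31 in CeA (86.7th). Cbln1 by 1423287_at had SDs of 0.75 in BNST (99.8th percentile), 0.74 in CeA (98.6th) and 0.62 in NAC (99.7th). In BNST the first component held 34.0% of the variance and had absolute correlations of 0.83 to 0.87 with the Cbln1 probesets.

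Whether Cbln2 and Cbln4 varied together among mice of the same PFC group was asked of values that the choice of the genes had not used. After subtraction of the group means, Pearson's r was 0.44 (permutation p = 0.00742, adjusted p = 0.0223) and Spearman's rho 0.43 (permutation p = 0.00531, adjusted p = 0.0159), over 47 arrays and adjusted over the 15 relations of 3 pairs of genes in 5 regions. Without the 2 arrays farthest from the median of Cbln2, r was 0.49. The relation was positive, but it did not pass an adjusted p of 0.01. In CeA, r was 0.47 for the same pair (permutation p = 0.00174, adjusted p = 0.0087, rho 0.37, permutation p = 0.0194, n = 43, r = 0.35 without 2 arrays). It was -0.22 in NAC (permutation p = 0.157), 0.03 in HPC (permutation p = 0.843) and 0.39 in BNST (permutation p = 0.0117, adjusted p = 0.025, rho 0.39, permutation p = 0.0118, r = 0.30 without 2 arrays). Cbln1 and Cbln2 had an r of 0.57 in CeA (permutation p = 0.00013, adjusted p = 0.000975, rho 0.48, permutation p = 0.00181, r = 0.46 without 2 arrays) and -0.25 in the PFC (permutation p = 0.112). In NAC, Cbln1 and Cbln2 had an r of 0.39 (permutation p = 0.00566, adjusted p = 0.0212, rho 0.42, permutation p = 0.0033, r = 0.38 without 2 arrays). By Pearson's r, both relations given for CeA passed an adjusted p of 0.01. By Spearman's rho neither did (adjusted permutation p = 0.0415 for Cbln2 and Cbln4, 0.0136 for Cbln1 and Cbln2). Those given for PFC, NAC, HPC and BNST did not pass by either, and a difference between regions was not tested. Relations of Cbln1 in BNST are given further below, because its arrays there fell apart.

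Among mice of a PFC group, markers of cortical layers moved with Cbln2 and Cbln4, and oligodendrocyte and astrocyte markers moved with Cbln2. Cbln2 had a within-group r of 0.71 with the mean of the upper-layer list (permutation p = 1e-05, the smallest that 100000 permutations can give, adjusted over 210 relations p = 0.000162, rho 0.71, permutation p = 1e-05, r = 0.69 without 2 arrays). Its r was -0.64 with the layer 6b and claustrum list (permutation p = 2e-05, rho -0.62, permutation p = 4e-05), -0.59 with oligodendrocytes (permutation p = 8e-05, rho -0.57, permutation p = 0.00013) and -0.58 with astrocytes (permutation p = 0.0001, rho -0.54, permutation p = 0.00026). Cbln4 had an r of 0.55 with the upper-layer list (permutation p = 0.00022, rho 0.50, permutation p = 0.00081) and -0.57 with the layer 6b list (permutation p = 0.00016, rho -0.52, permutation p = 0.00055). With oligodendrocytes its r was -0.35 (permutation p = 0.032, adjusted p = 0.079) and with astrocytes -0.03 (permutation p = 0.874, adjusted p = 0.929), which did not pass. It also had an r of 0.57 with the cerebellar granule cell list (permutation p = 0.00014, rho 0.59, permutation p = 4e-05). All the relations above but those 2 glial ones of Cbln4 had an adjusted p under 0.01. Leaving out 2 arrays left those that passed between 0.48 and 0.69 in size. With the deep-layer list, Cbln4 had an r of -0.42 (permutation p = 0.00232, adjusted p = 0.00959, rho -0.47, -0.37 without 2 arrays). Cbln1 had the opposite sign there, with an r of 0.51 (permutation p = 0.00043, adjusted p = 0.0022, rho 0.48, 0.45 without 2 arrays). The r of Cbln2 with that list was -0.41 (permutation p = 0.00306, adjusted p = 0.0117), which did not pass.

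**Figure D4:**
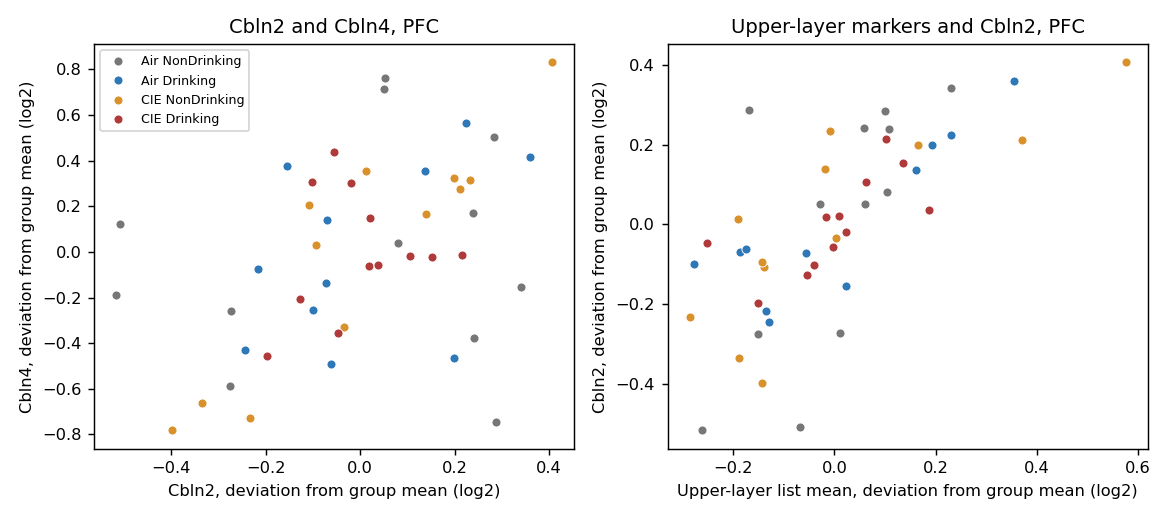
Deviations from the group mean, on the log2 scale, of Cbln4 against Cbln2 (left) and of Cbln2 against the mean of 7 upper-layer markers (right) over 47 PFC arrays, coloured by group. Points rise from lower left to upper right in both panels, with r of 0.44 on the left and 0.71 on the right.

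Between PFC groups, 3 of the 7 upper-layer genes fell and none rose in Comparison 1 (median log2 fold change -0.41, against 0.00 for all genes, of which 2.16% passed). Cux2, a layer transcription factor, fell by 0.67 (SE 0.15, LIMMA adjusted p = 0.00425), Rorb, a nuclear receptor of layer 4, by 0.50 (SE 0.12, LIMMA adjusted p = 0.0081) and Pou3f2 by 0.43 (SE 0.09, LIMMA adjusted p = 0.0028). In Comparison 6, 2 of the 7 rose (median 0.37, against -0.02 for all genes, of which 1.32% passed), Cux2 by 0.74 (LIMMA adjusted p = 0.00232) and Rorb by 0.59 (LIMMA adjusted p = 0.00287). For the interaction, 2 of 7 passed as negative (median -0.47, against 0.01 for all genes, of which 3.04% passed). The mean of the list ran from 8.55 to 9.05 in Air NonDrinking, 8.90 to 9.54 in Air Drinking, 8.65 to 9.52 in CIE NonDrinking and 8.58 to 9.02 in CIE Drinking arrays, so it reached highest in the 2 groups in which Cbln2 was high. In Comparison 2, where Cbln2 and Cbln4 were higher, Cux2 gave 0.27 (SE 0.15, LIMMA adjusted p = 0.288) and Rorb -0.03 (SE 0.12, LIMMA adjusted p = 0.925).

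Of the layer 6b list, a pair of genes rose. In Comparison 1, 2 of 6 rose (median 0.17), Cplx3 by 0.71 (SE 0.13, LIMMA adjusted p = 0.00091) and Ccn2 by 0.57 (SE 0.12, LIMMA adjusted p = 0.00197), and for the interaction the same 2 genes passed as positive (Cplx3 1.02, Ccn2 0.82, list median 0.29). None passed in Comparison 6, where 4 of 6 had an unadjusted p under 0.05 and the median was -0.25. In Comparison 1, 1 of 7 oligodendrocyte genes rose (median 0.32), the lineage factor Olig2 by 0.35 (SE 0.08, LIMMA adjusted p = 0.00423). Of 8 astrocyte genes, 1 rose, the intermediate filament gene Gfap by 0.89 (SE 0.17, LIMMA adjusted p = 0.00125), with a median of 0.05. Of all genes, 2.16% passed in Comparison 1 and 3.04% for the interaction. With 1 gene called in each, the oligodendrocyte and astrocyte lists are not read as changed. The striatal list had 0 of 8 genes past the threshold in Comparisons 1 and 6, where 2 and 6 had an unadjusted p under 0.05, but medians of 0.48 and -0.63. Gabra6, the defining cerebellar granule cell gene, lay at a median percentile rank of 13.8 in the PFC. The part of these cell type markers in the group differences of Cbln2 and Cbln4 was not tested.

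The 5 genes most like Cbln2 among PFC mice, by within-group r over 47 arrays among 11139 genes, were A330009N23Rik (0.81), Rapgef5 (0.80), Tcerg1l (0.80), the potassium channel gene Kcng2 (0.80) and the secreted glycoprotein gene Reln (0.78). Their Comparison 1 values ran from -0.31 for Tcerg1l to -0.16 for A330009N23Rik, and their Comparison 6 values from 0.06 to 0.29, smaller than those of Cbln2. Those most like Cbln4, among 11140 genes, were the netrin receptor gene Unc5d (0.84), Exph5 (0.80), Cpne9 (0.79), the matrix protein gene Npnt (0.78) and Cracd (0.76). Npnt came closest to Cbln4 in size, with -0.49 in Comparison 1, 0.59 in Comparison 6 and an interaction of -0.89. Those most like Cbln1 in the PFC were Trip12 (0.72), Mpdz (0.70), Kcnf1 (0.69), Plcxd1 (0.68) and Dnmt3a (0.67), whose interactions lay between -0.01 and 0.22.

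In other regions the members went with some of the same lists and with others. Cbln2 in HPC had an r of 0.92 with the deep-layer list (permutation p = 1e-05, rho 0.89, permutation p = 1e-05), 0.89 with layer 6b and claustrum (permutation p = 1e-05, rho 0.85, permutation p = 1e-05) and 0.81 with interneurons (permutation p = 1e-05, rho 0.83, permutation p = 1e-05), over 42 arrays. Cbln4 in NAC had an r of 0.89 with the extended amygdala list (permutation p = 1e-05, rho 0.89, permutation p = 1e-05) and -0.80 with layer 6b and claustrum (permutation p = 1e-05, rho -0.76, permutation p = 1e-05), over 47 arrays. Leaving out 2 arrays left these between 0.76 and 0.90 in size. Cbln4 in CeA had an r of 0.62 with the upper-layer list (permutation p = 3e-05, rho 0.63, permutation p = 4e-05, n = 43, 0.53 without 2 arrays), the sign it had in the PFC. With the deep-layer list it had one of 0.58 (permutation p = 5e-05, rho 0.55, permutation p = 0.00024, 0.47 without 2 arrays), opposite in sign to the PFC. Its r was -0.56 with the choroid plexus list (permutation p = 0.00028, rho -0.56, permutation p = 0.00024, -0.63 without 2 arrays), the list that stood apart in that region. Of 210 relations computed over the 5 regions, those with an adjusted p of 0.01 or less by Pearson's r numbered 9 in PFC, 14 in NAC, 7 in HPC, 9 in CeA and 12 in BNST. Of those 12, 7 were of Cbln1 and are not read because of the gap described next. Cbln2 in BNST had an r of -0.72 with the striatal list (permutation p = 1e-05, rho -0.66, permutation p = 2e-05, r = -0.65 without 2 arrays), and Cbln4 there one of -0.55 with the thalamus list (permutation p = 0.0002, rho -0.43, permutation p = 0.005, r = -0.46 without 2 arrays). By Spearman's rho, that of Cbln4 did not pass (adjusted permutation p = 0.0191). Cbln2 and the striatal list both differed across the same gap, with medians of 7.73 and 10.73 below it and 8.37 and 9.02 above it. The part of the gap in the r of Cbln2 was not tested.

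Cbln1 in BNST fell into a high set of arrays and a tail of low ones. By 1423287_at, 35 arrays lay between 9.72 and 11.14 and 10 arrays between 8.28 and 9.32, with none between. The low arrays were 5 of 12 Air Drinking, 3 of 11 CIE NonDrinking, 1 of 12 CIE Drinking and 1 of 10 Air NonDrinking arrays. Group medians were 10.36 in CIE Drinking (8.50 to 11.14), 10.00 in Air Drinking (8.52 to 10.77), 10.15 in CIE NonDrinking (8.28 to 10.76) and 10.38 in Air NonDrinking (9.21 to 10.75) mice. The groups overlapped over nearly their whole range. The interaction was 1.06 (SE 0.43, LIMMA adjusted p = 0.137) by this probeset and 1.10 (SE 0.42, LIMMA adjusted p = 0.115) and 0.84 (SE 0.36, LIMMA adjusted p = 0.161) by the others. The sign is opposite to that of Cbln2 and Cbln4 in the PFC, and none passed, while with array weights 1423286_at did for 1 of the 2-factor terms.

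Other genes differed between the same sets of BNST arrays, some with ranges that overlapped and some without overlap. The 5 genes most like Cbln1 there, over 45 arrays and 11190 genes, were Slc17a6, the vesicular glutamate transporter of subcortical neurons, Cabp7, Pmch, the melanin-concentrating hormone precursor of the lateral hypothalamus, Igf1 and Atp13a4. Pmch ran from 7.38 to 11.64 (median 8.11) in the 10 low arrays and from 11.35 to 14.51 (median 13.20) in the 35 high ones. Slc17a6 ran from 9.75 to 10.60 in the low and from 10.58 to 11.81 in the high arrays. The other genes did not overlap. Cabp7 ran from 8.16 to 8.73 in the low and from 9.09 to 9.92 in the high arrays. Igf1 ran from 6.92 to 7.34 and from 7.51 to 8.3, and Atp13a4 from 8.41 to 8.89 and from 8.94 to 9.35. The mean of the striatal list ran from 10.19 to 11.08 (median 10.73) in the low arrays and from 8.19 to 10.49 (median 9.02) in the high ones. These 5 genes were picked for their r with Cbln1 over these arrays, so their low values beside low Cbln1 follow from that choice. The striatal list was not picked in that way and tended to be higher where Cbln1 was low. The part of these markers in the values of Cbln1 was not tested.

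Because the arrays fell apart, relations with Cbln1 in BNST are given on either side of the gap only. Among the 35 high arrays, after subtraction of group means, Cbln1 had an r of 0.75 with Slc17a6, 0.77 with Cabp7 and 0.69 with Pmch, as a description. With Cbln2 it had an r of 0.33 (permutation p = 0.0574, rho 0.39, permutation p = 0.0234, adjusted over 32 relations p = 0.229) and with Cbln4 one of 0.43 (permutation p = 0.00989, rho 0.43, permutation p = 0.0117, adjusted p = 0.135). Among the 10 low arrays the values were 0.45 with Cbln2 (permutation p = 0.197) and 0.11 with Cbln4 (permutation p = 0.766). No relation of Cbln1 with another member or a marker list passed the adjustment on either side. Cbln2 was itself lower in the 10 arrays (7.14 to 8.23, median 7.73) than in most of the 35 (7.40 to 8.86, median 8.37), while Cbln4 was much the same (8.83 to 9.25 against 8.61 to 9.47).

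**Figure D5:**
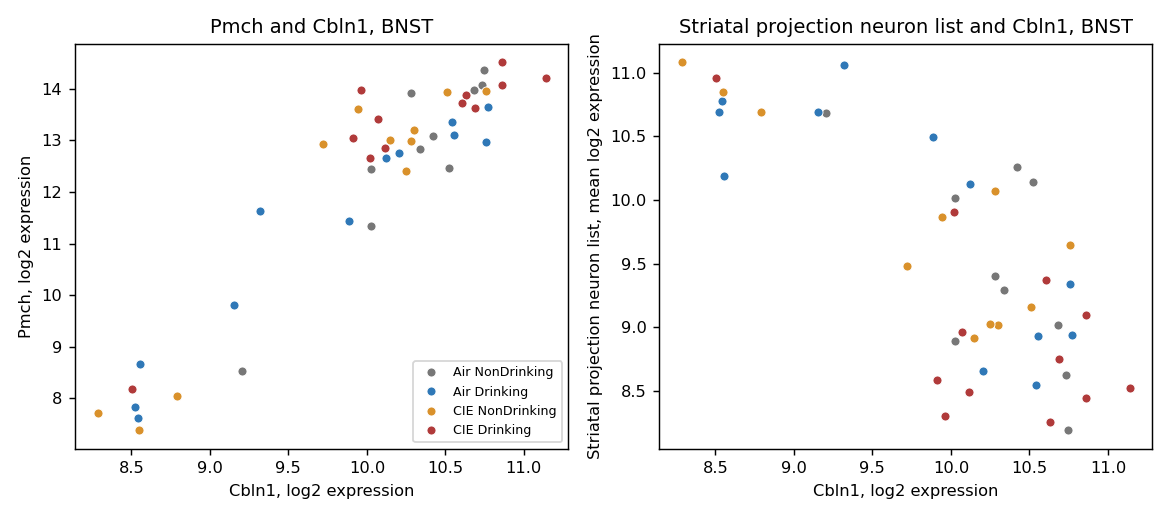
Log2 expression of Pmch (left) and mean log2 expression of the striatal projection neuron list (right) against Cbln1 (1423287_at) in 45 BNST arrays, 1 point per array, coloured by group. The 10 arrays with Cbln1 at 9.32 or lower have Pmch between 7.38 and 11.64 and a striatal mean between 10.19 and 11.08, and they come from all 4 groups.

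The partners of the cerebellins are the genes with which they act or compete. The list held 20 genes analysed here, which are relatives, receptors or rival ligands of the cerebellins. By the probeset with the highest mean, 0 of the 20 passed in each of the 6 PFC comparisons, where 3 to 11 had an unadjusted p under 0.05, and their medians lay between 0.01 and 0.08. All genes passed in 2.16%, 0.77%, 1.2%, 0.61%, 0.715% and 1.32% of cases in Comparisons 1 to 6. Grid1, the delta-type glutamate receptor of the forebrain, differed by 0.03 (SE 0.04, LIMMA adjusted p = 0.776) in Comparison 1 and 0.04 (SE 0.04, LIMMA adjusted p = 0.573) in Comparison 6. The neurexins Nrxn2 (-0.03, SE 0.04, LIMMA adjusted p = 0.769) and Nrxn3 (0.05, SE 0.03, LIMMA adjusted p = 0.372) did not pass in Comparison 1 either, and these 3 genes stood at median percentile ranks of 76.8, 93.2 and 97.7.

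C1ql3, another secreted synaptic protein of the C1q family, moved in the PFC. Its interaction was -0.38 (SE 0.09, LIMMA adjusted p = 0.00479) by 1451620_at and -0.65 (SE 0.12, LIMMA adjusted p = 0.000626) by 1425175_at, the sign of Cbln2 and Cbln4. It was the only partner whose brightest probeset passed for that term, for which 3.04% of all genes passed. The call is therefore not read as a result about the partners as a set. By 1425175_at it also fell by 0.44 in Comparison 3 (SE 0.08, LIMMA adjusted p = 0.00108), from a mean of 9.70 in CIE NonDrinking to 9.26 in CIE Drinking mice, with all 12 CIE Drinking arrays below the CIE NonDrinking mean. Other probesets of Neo1, Ptprd, Nrxn3 and Lrrtm1 passed in the PFC where the one with the highest mean did not. Ptprd, a receptor phosphatase that binds synaptic ligands, rose by 0.44 by 1443860_at in Comparison 3 (SE 0.07, LIMMA adjusted p = 0.000126). Which transcript such a probeset measures was not analysed here.

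In NAC and HPC the neuroligin Nlgn1, which competes with cerebellins for neurexins, rose. In NAC it rose by 0.32 in Comparison 4 (SE 0.08, LIMMA adjusted p = 0.0066), from a mean of 9.67 to 10.00, and no other partner passed there by its brightest probeset. With array weights in the fit this call was lost. In HPC it rose by 0.37 in Comparison 1 (SE 0.08, LIMMA adjusted p = 0.00621), from 9.50 to 9.86, and by 0.35 in Comparison 4 (SE 0.09, LIMMA adjusted p = 0.00844), with all 12 CIE Drinking arrays above the mean of the other group each time. Nlgn3 in HPC fell by 0.19 by 1436135_at (SE 0.04, LIMMA adjusted p = 0.0019) but rose by 0.22 by 1456384_at (SE 0.05, LIMMA adjusted p = 0.00641) in Comparison 4, so its probesets disagreed. Comparisons 1 and 4 share the CIE Drinking arrays.

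No partner passed in BNST or CeA by its brightest probeset, where 0 to 5 and 0 to 7 of 20 had an unadjusted p under 0.05. Of all genes, 0.066%, 0.011% and 0.995% passed in Comparisons 1, 3 and 4 in NAC, 0.399%, 0.0% and 1.45% in HPC, 0.471%, 0.0886% and 0.332% in BNST, and 0.0111%, 0.357% and 0.318% in CeA. In Comparisons 2, 5 and 6 the share was 0.0% in each of these regions. In CeA the median of the 20 genes was -0.21 in Comparison 2 against -0.01 for all genes and 1 of 20 lay above 0. In Comparison 5, which shares the CIE NonDrinking arrays, the median was -0.12 and again 1 of 20 lay above 0, and the part of the choroid plexus markers of these arrays in both values was not tested. Dimmer probesets of Dcc, Ptprs and Nlgn1 rose in CeA in Comparison 3, where 1.64% of all probesets passed and 1.57% passed as higher. Dcc, a receptor of Cbln4, rose by 0.53 (SE 0.12, LIMMA adjusted p = 0.00727), from a mean of 8.53 to 9.06, with all 12 CIE Drinking arrays above the CIE NonDrinking mean. Ptprs rose by 0.48 (SE 0.11, LIMMA adjusted p = 0.00578) and Nlgn1 by 0.38 (SE 0.08, LIMMA adjusted p = 0.00267). In Comparison 4, dimmer probesets of Neo1, Nrxn2, Nrxn3, Ptprd, Nlgn3 and Lrrtm1 passed as higher in HPC. In NAC a dimmer probeset of Nlgn1 passed as higher (0.42) and one of Neo1 as lower (-0.21). Over all probesets, 3.63% passed in that comparison in HPC and 2.71% in NAC. These calls are not read as a result about the partners.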

How the data were processed

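Per the methods, the authors measured RNA of dissected tissue on Affymetrix arrays, removed arrays of low quality, and applied RMA with quantile normalization in each region separately, then ComBat for hybridization batch. The deposited values are therefore log2 intensities (2.63 to 14.77) already adjusted for a batch that the labels do not name, and adjusting before the fit can make p-values too small. Values were complete for 43969 to 45037 probesets a region. Of 45037 probesets, 34945 carried 1 gene symbol in the platform table, 932 several and 9160 none. Where a gene has several probesets, the one with the highest mean in the region was used unless named.

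All probesets of a region were fitted in R 4.3.3 with limma 3.58.1 (LIMMA), with 1 mean for each of the 4 groups, and the Benjamini-Hochberg adjustment ran over all probesets of a region and comparison (threshold 0.01). The replicate is the mouse number in the labels. A fit of NAC, HPC, BNST and CeA together gave the mean response and its difference among regions. Correlations used values with group means subtracted and 100000 two-sided permutations within groups (scipy 1.17.1). The fits were tested on simulated data. Members and gene lists were chosen with earlier results of these data known, and the relations with marker lists and the split of BNST arrays were added after the data were seen. Named genes are the members, partners that passed, Grid1, Nrxn2 and Nrxn3, the 5 genes most like each member in the PFC and in its highest region, of which those of Cbln4 in BNST were AI504432, Trhde, Marcksl1, Psme1 and Brinp3 (r of 0.81 to 0.84), and 2 to 4 genes a marker list. The number of arrays limits the precision. Alternatives were a filter on dim probesets, trend and robust variances, array weights, repeated quantile normalization, only the groups compared, the mean of a gene's probesets, and the mouse number as a block.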

Additional observations from a re-analysis of the deposited data

Results flagged for a closer look

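In the Air NonDrinking groups of HPC, BNST and CeA, which hold 8 or 10 arrays, 15 tests over 5 probesets found a lowest array far from the next for the range of its group 4 times, 3 of them for a single array by the 3 probesets of Cbln1. Chance gives about 1 in 20 groups, and these tests are not independent. In BNST Air NonDrinking mice, 1 mouse was low by all probesets of Cbln1, at 8.71 (1423286_at), 9.21 (1423287_at) and 7.40 (1423288_s_at). That array is 1 of the 10 low ones in BNST. In CeA Air NonDrinking mice, the lowest Cbln4 array stood at 7.79.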

How the results depend on the processing

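In the PFC, the 7 member values at an FDR of 0.01, which chose the genes, became 4 when dim probesets, Cbln4 among them, were left out, and 3 with only the 2 groups compared in each fit. Without dim probesets, the 2 interaction calls and the 2 calls of any group difference each became 1. With array weights, Cbln1 in BNST (1423286_at) passed once in the 6 comparisons and once among the 2-factor terms, where 0 had passed. Partner calls over the 6 comparisons moved with array weights from 0 to 2 in the PFC, from 1 (Nlgn1) to 0 in NAC and from 0 to 4 in BNST. They moved with a gene's probesets averaged from 0 to 1 in the PFC and in CeA, and with only the 2 groups compared from 0 to 1 in BNST. With the mouse number as a replicate block over NAC, HPC, BNST and CeA (correlation 0.0202), 0 of 30 mean responses and 0 of 30 differences among regions passed, as without it, with smallest LIMMA adjusted p of 0.392 and 0.033. Without subtraction of group means, the Cbln2 and Cbln4 relation in the PFC became 0.70 and passed 0.01, that in CeA became 0.41 and did not, and values near 0 changed sign, Cbln1 and Cbln2 in HPC (-0.01), Cbln2 and Cbln4 in HPC (-0.03) and Cbln1 and Cbln4 in CeA (-0.01). With the mean of the Cbln1 probesets, Cbln1 and Cbln2 in HPC gave -0.02. On either side of the gap in Cbln1, added after the data were seen, its relation with Cbln2 in BNST was 0.45 and 0.33 and did not pass. By log2 level above the array median, 2 places in the order of Cbln4 changed. The other 117 values of this kind and all 75 alternatives of single fold changes kept direction and side of the threshold. The cause of these shifts was not tested.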
